A study of Mus musculus with 15 samples.

Results

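Effector T cells and NK cells secrete interferon gamma and a set of chemokines, and they read the cytokines IL-12 and IL-18 through the receptors that sustain this secretion. The 9 genes described here are the chemokine ligands Xcl1, Ccl3, Ccl4 and Ccl5, the cytokine gene Ifng, both IL-12 receptor chains (Il12rb1 and Il12rb2) and both IL-18 receptor chains (Il18r1 and Il18rap). They were chosen by symbol, as ligands, cytokine and receptors of 1 pathway, out of 18193 genes represented on the array. The choice was made with earlier results of these data known. Shares over all tested genes that stand beside the members are therefore descriptions and no test. All 9 were on the array, and all 9 were among the 11902 genes with a signal of at least 100 in at least 3 arrays, which were tested.

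The series holds 15 mouse samples, each on 1 oligonucleotide array. There were 9 peripheral T cell lymphomas (mPTCL 1 to 9), which formed in C57BL/6 recipients lacking CD3 (CD3KO) after transfer of p53KO T cells and were sorted from liver. The normal samples were T cells, 3 of them resting and 3 activated in vitro, from 5-week-old p53 KO C57Bl/6 mice. The normal cells were sorted from liver or spleen, and neither the organ of each sample nor the activating agent is given in the sources used here. The growth protocol of the normal samples names injections of PBS or heat-killed Streptococcus pneumoniae, without saying which donors had them. Cells of all 3 groups thus came from p53-null T cells, while a CD3KO host lacks mature T cells and keeps its other cells. No label says that samples of a group came from different mice. The p-values then reflect only how far these samples spread, which may be technical.

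In this pathway, IL-12 from macrophages and dendritic cells binds a receptor made of Il12rb1, shared with the IL-23 receptor, and Il12rb2, the chain that carries the signal to STAT4. IL-18 binds Il18r1, with Il18rap as the accessory chain that starts MyD88 signalling. Together they drive transcription of Ifng, with the transcription factor T-bet. Interferon gamma then acts through its receptor and the JAK kinases on antigen presentation genes and on the guanylate-binding proteins and immunity-related GTPases. Ccl3, Ccl4 and Ccl5 attract monocytes, T cells and NK cells, and Xcl1 attracts cross-presenting dendritic cells that carry Xcr1.

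Values are log2 of the deposited signal, with everything below 32 set to that floor (5.00 on the log2 scale). A gene was called at an adjusted p under 0.05 in limma, over all tested genes, with a change of at least 2-fold. Levels of different genes are not compared, since probes differ in brightness. All arrays had the same 2% trimmed mean of 500. The median signal was between 91.7 and 99.2 at rest, 110 and 118 after activation, and 68.0 and 116 in the lymphomas. Actin 3′/5′ signal ratios were 1.26 to 1.50, 1.49 to 1.54 and 1.47 to 2.65 in that order. Centring arrays on the median instead moved the median change over all tested genes, activated against resting, from 0.02 to -0.26 log2 units, and lymphomas against activated, from -0.08 to 0.27. The calls over all genes then split into 743 higher and 1176 lower for activated against resting cells (1006 and 504 without that centring) and into 1515 and 504 for lymphomas against activated cells (838 and 986 without it). It turned the sign of 4 member differences, none of them called, which are given with their genes.

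Cell type markers set limits on what the lymphoma arrays measure. The mean of 9 T cell genes on the array was 12.59 to 12.76 in resting cells, 12.13 to 12.22 in activated cells and 8.66 to 12.07 in lymphomas. Cd3e, a defining T cell chain, was at the floor in mPTCL 4, at 5.68 in mPTCL 3 and at 9.03 in mPTCL 5, against at least 10.85 in the other 6 lymphomas and at least 11.04 in normal cells. Cd3g was at 10.97, 12.74 and 10.14 in the same 3 lymphomas, and Thy1 ran from 5.32 (mPTCL 9) to 12.64 (mPTCL 7). The mean of 10 neutrophil genes was 5.65 to 5.99 in all normal arrays. It was 5.67 in mPTCL 3 and 6.12 in mPTCL 7, and 8.13 to 12.42 in the other 7 lymphomas, with S100a8 between 9.32 and 14.73 in those 7. The mean of 13 macrophage and Kupffer cell genes was highest in mPTCL 4 and ran from 5.61 to 8.51 in the other 8 lymphomas, with 7.00 to 7.47 in resting and 5.51 to 5.75 in activated cells. B cell genes (10 on the array) stood at 10.95 in mPTCL 1 and 11.64 in mPTCL 5, against 7.28 to 9.11 in normal cells. Hepatocyte genes stood apart in mPTCL 8, at 8.35 over 5 genes, with Alb at 11.22. In such bulk samples, fewer cells of a type and less RNA per cell cannot be told apart.

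The promoters of 4 members are shown because the tests below turn on them: Xcl1 and Il12rb2 changed with activation and differed in lymphomas, while Ifng and Ccl3 spread most among lymphomas. RefSeq entries on GRCm38.p6 were matched by symbol for 6 of the 9 members (not for Ccl4, Ccl5 and Il12rb1). Each sequence is the 250 bases before the annotated transcription start, on the gene's strand. Capitals mark matches, on either strand, to 6 short motifs: TATAAA (the TATA box), TTCNNNGAA (the STAT palindrome), TGANTCA (AP-1), GGAAAA (the NFAT core), GGTGTGA (the T-box core bound by T-bet) and CACGTG (E-box). The windows lie at chr10:118440796-118441045 (plus strand) for Ifng, chr11:83649379-83649628 (minus) for Ccl3, chr1:164935523-164935772 (minus) for Xcl1 and chr6:67376189-67376438 (minus) for Il12rb2.
Ifng: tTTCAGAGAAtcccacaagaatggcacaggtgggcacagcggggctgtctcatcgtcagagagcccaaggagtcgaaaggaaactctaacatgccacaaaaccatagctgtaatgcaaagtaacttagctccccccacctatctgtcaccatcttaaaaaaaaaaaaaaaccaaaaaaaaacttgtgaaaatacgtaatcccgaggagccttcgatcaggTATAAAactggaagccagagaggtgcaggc
Ccl3: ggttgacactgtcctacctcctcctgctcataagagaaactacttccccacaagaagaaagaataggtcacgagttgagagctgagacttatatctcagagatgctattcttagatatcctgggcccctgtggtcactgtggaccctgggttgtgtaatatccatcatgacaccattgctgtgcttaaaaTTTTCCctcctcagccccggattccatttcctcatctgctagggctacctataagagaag
Xcl1: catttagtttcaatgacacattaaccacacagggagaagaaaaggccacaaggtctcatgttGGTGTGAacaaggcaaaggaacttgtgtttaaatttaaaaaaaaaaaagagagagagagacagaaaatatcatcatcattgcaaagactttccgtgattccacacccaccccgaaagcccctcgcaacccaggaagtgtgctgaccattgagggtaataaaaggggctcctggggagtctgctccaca
Il12rb2: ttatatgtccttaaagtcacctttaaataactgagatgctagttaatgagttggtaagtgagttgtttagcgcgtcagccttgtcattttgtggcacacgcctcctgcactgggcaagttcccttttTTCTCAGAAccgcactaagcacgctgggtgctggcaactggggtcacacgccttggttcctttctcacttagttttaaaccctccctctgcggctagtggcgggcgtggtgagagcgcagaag
The Ifng window held TATAAA 30 to 25 bases before the start and a STAT palindrome 249 to 241 bases before it. The Il12rb2 window held 1 STAT palindrome, 123 to 115 bases before the start. The Ccl3 window held the NFAT core on the other strand, 60 to 55 bases before the start, and the Xcl1 window held the T-box core, 188 to 182 bases before it. Of 32851 windows of that length in the same table, 12.4% held TATAAA, 7.02% the STAT palindrome, 20.4% the NFAT core and 3.33% the T-box core. AP-1 (6.75% of windows) and the E-box (6.02%) matched in none of the 4, which says only that these letters are not there.

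The first comparison sets normal p53-null T cells activated in vitro against resting ones. The organ and injection of each sample are not given, so a group difference in either cannot be told apart from activation. The macrophage and Kupffer cell mean also differed, at 7.00 to 7.47 at rest and 5.51 to 5.75 after activation, and its part in the members' levels was not tested. Both IL-12 receptor chains rose, and Xcl1 and the IL-18 receptor chain Il18r1 fell. Of the 9 members, 2 were called higher and 2 lower, where 8.45% of all tested genes were called higher and 4.23% lower. The median difference of the members was -0.46 log2 units, against 0.02 over all tested genes. The 3 activated and 3 resting arrays did not overlap for 6 members, as for 46.6% of all tested genes. Ccl3, Ccl4, Ccl5, Ifng and Il18rap were not called.

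**Figure D1:**
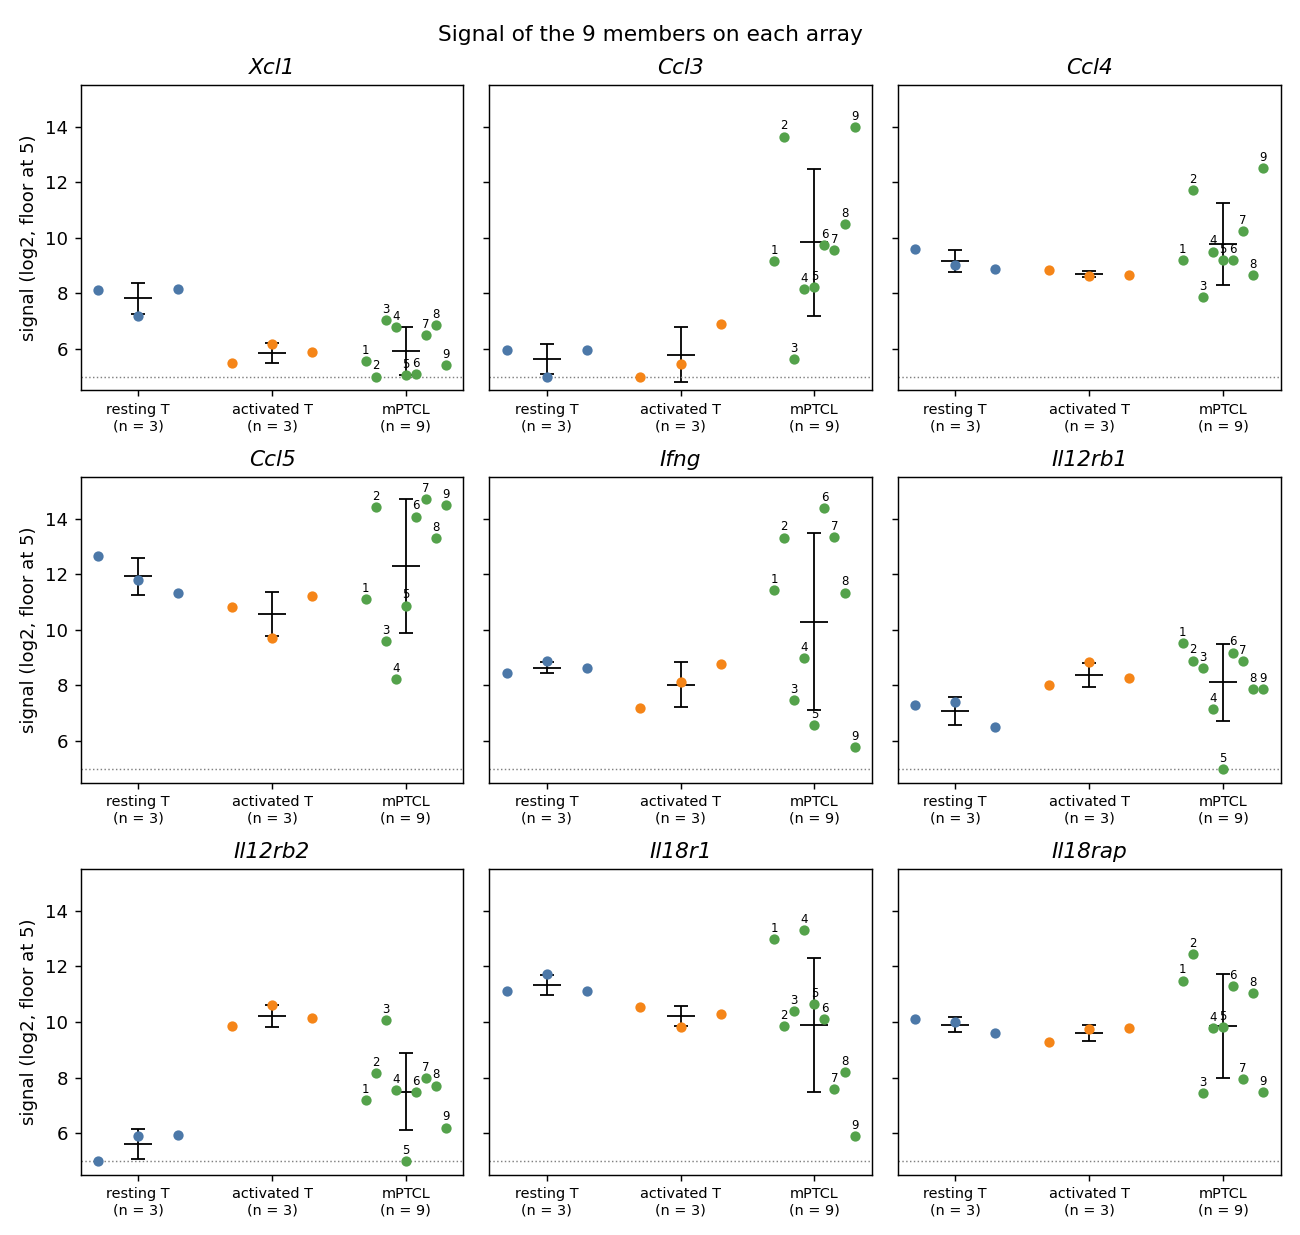
Log2 signal (vertical axis, floor at 5) of each of the 9 members in 3 resting, 3 activated and 9 lymphoma arrays. Each point is 1 array, with lymphomas numbered, and bars give the group mean ± SD. The lymphomas spread from 5.78 to 14.37 for Ifng and from 5.62 to 13.99 for Ccl3, while Il12rb2 parts the resting (5.00 to 5.93) from the activated arrays (9.86 to 10.63).

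Xcl1, lymphotactin, was at 8.13, 7.18 and 8.14 in the resting arrays and at 5.48, 6.17 and 5.89 in the activated arrays. Every activated array was below every resting array. It fell by 1.97 ± 0.34 on the log2 scale (SE, n = 3 and 3; 3.92-fold), with a limma adjusted p of 0.00713 (0.0946 and not called in a fit of all 15 arrays). In the lymphomas Xcl1 ran from the floor in mPTCL 2 to 7.03 in mPTCL 3, with a median of 5.57. The highest were mPTCL 3, 8, 4 and 7, at 7.03, 6.86, 6.79 and 6.49, and all 9 lay below the lowest resting array. Xcl1 was therefore lower in lymphomas than in resting cells, with a difference of -1.90 ± 0.52 log2 units (n = 9 and 3; at least 3.72-fold, since 1 lymphoma was at the floor; adjusted p = 0.0243). This call was lost without resting array 1 (adjusted p = 0.114) or 3 (0.115), and without the 7 lymphomas high in neutrophil markers, where the difference was -1.05 (0.183). Against activated cells the difference was 0.08 ± 0.51 (adjusted p = 0.930), with an interval of 95% confidence from -1.03 to 1.18, and 4 lymphomas lay above and 4 below every activated array.

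Ccl3 (MIP-1 alpha) was near the floor in all normal cells. The resting arrays read 5.94, 5.00 and 5.95 and the activated arrays 5.00, 5.46 and 6.91, with 1 array of each group at the floor. The difference of activated from resting cells was 0.16 ± 0.53 (adjusted p = 0.853), and it turned to -0.12 after median centring. The lymphomas mPTCL 1 to 9 read 9.16, 13.64, 5.62, 8.16, 8.22, 9.74, 9.54, 10.49 and 13.99. Thus 8 of 9 lymphomas exceeded every normal array, and mPTCL 3 was within the normal range. The mean difference from resting cells was 4.21 ± 1.39 log2 units, with an interval from 1.21 to 7.20, and from activated cells 4.05 ± 1.41, with an interval from 1.01 to 7.09. Neither was called, at adjusted p of 0.0517 and 0.0578. Without mPTCL 3 both were called, at 4.74 (adjusted p = 0.0165) and 4.58 (0.0192). Leaving out mPTCL 4 (adjusted p = 0.0474) or mPTCL 5 (0.0471) also gave a call against resting cells. Ccl3 was called in both comparisons with array weights (adjusted p = 0.00303 and 0.00317), in the fit of all 15 arrays (0.0303 and 0.0339), with quantile normalisation (0.0469 and 0.0446) and without the 3 lymphomas low in Cd3e (5.46, 0.00418 and 5.30, 0.00504). A floor of 16 (0.0474) and a filter at 200 (0.0464) gave a call against resting cells alone, and median centring (0.047) against activated cells alone.

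Ccl3 is also a product of activated neutrophils and macrophages. How much of its signal came from which cells was not tested, and its values are given beside those markers. The lymphoma mPTCL 7 had Ccl3 at 9.54 with the neutrophil mean at 6.12 and the macrophage mean at 5.61, 7 of 13 macrophage genes being at the floor. The other lymphoma without raised neutrophil markers, mPTCL 3, had the lowest Ccl3, 5.62, with a neutrophil mean of 5.67 and a macrophage mean of 6.37. The lymphomas with the highest neutrophil means, mPTCL 5 and mPTCL 4, at 12.42 and 12.00, had Ccl3 at 8.22 and 8.16. Over the 9 lymphomas Ccl3 had an r of 0.11 with the neutrophil mean (exact permutation p = 0.777, adjusted 0.842; rho -0.12, p = 0.776). With the macrophage mean r was -0.12 (exact permutation p = 0.749, adjusted 0.842; rho -0.28, p = 0.463). Without mPTCL 2 and 9, the lymphomas farthest from the median Ccl3, these r were 0.31 and -0.02.

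Ccl4 (MIP-1 beta), the gene next to Ccl3 on chromosome 11, was well above the floor in every array. Resting cells read 9.61, 9.00 and 8.87 and activated cells 8.83, 8.62 and 8.66, a difference of -0.46 ± 0.22 that was not called (adjusted p = 0.165) although the arrays did not overlap. Lymphomas ran from 7.87 (mPTCL 3) over a median of 9.19 to 12.50 (mPTCL 9), with mPTCL 2 at 11.70 and mPTCL 7 at 10.25 as the others above every normal array. The lymphoma differences were 0.62 ± 0.79 from resting cells (adjusted p = 0.619) and 1.08 ± 0.78 from activated cells (0.344). Without the 7 lymphomas high in neutrophil markers the first became -0.10 (0.942). Across the 9 lymphomas Ccl3 and Ccl4 had an r of 0.89 (exact permutation p = 0.00286, adjusted 0.0314 over 11 relations) and a rho of 0.60 (p = 0.0968, adjusted 0.532). Without mPTCL 2 and 9, the pair highest in both genes, r was 0.55 over 7 lymphomas (exact permutation p = 0.201), so the relation rests on those samples. Leaving out mPTCL 1, 2, 3, 5, 7 or 9 alone also took its adjusted p past 0.05, to between 0.0548 and 0.265.

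Ccl5 (RANTES), a chemokine of effector and memory T cells and NK cells, read 12.65, 11.81 and 11.33 in resting cells and 10.81, 9.69 and 11.22 in activated cells. The difference was -1.35 ± 0.47, with no overlap, and was not called (adjusted p = 0.0718). It was called with a floor of 16 (adjusted p = 0.0441), with log2 of the value plus 16 (0.0094), with a filter at 200 (0.0461) and after median centring (0.00876). The lymphomas split widely. mPTCL 2, 6, 7, 8 and 9 stood at 14.43, 14.08, 14.70, 13.30 and 14.49, above every normal array. mPTCL 1 and 5 stood at 11.11 and 10.87, and mPTCL 3 and 4 at 9.60 and 8.24, below every normal array. The mean differences, 0.38 ± 1.27 from resting and 1.74 ± 1.28 from activated cells, were not called (adjusted p = 0.864 and 0.349). Among the 6 lymphomas without low Cd3e the difference from activated cells was 3.11 and was called (adjusted p = 0.0081).

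**Figure D2:**
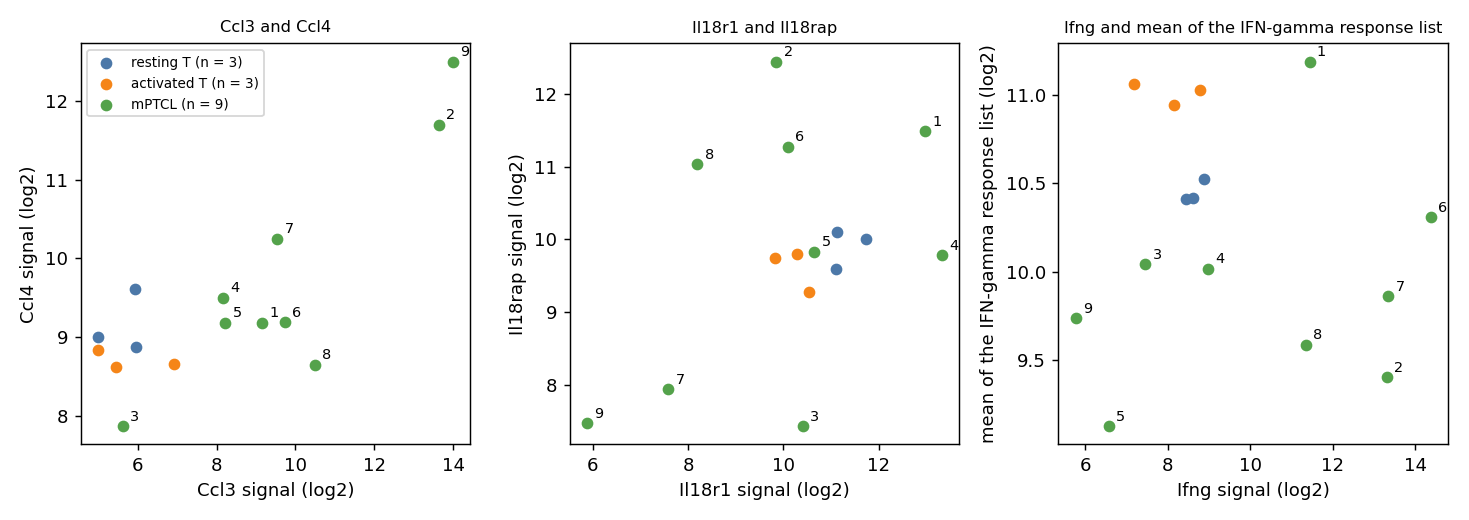
Log2 signal of Ccl3 against Ccl4, of Il18r1 against Il18rap, and of Ifng against the mean of the interferon gamma response list, with each point an array (resting blue, activated orange, lymphomas green with their number). mPTCL 2 and 9 lie far from the other 7 lymphomas in Ccl3 (13.64 and 13.99) and Ccl4 (11.70 and 12.50), and all lymphomas but mPTCL 1 lie below every normal array in the response mean.

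Ifng itself was not changed by call in any comparison, and it had one of the widest spreads on the array. Resting cells read 8.45, 8.87 and 8.61 and activated cells 7.17, 8.14 and 8.77, a difference of -0.62 ± 0.41 (adjusted p = 0.295). The lymphomas mPTCL 1 to 9 read 11.44, 13.32, 7.46, 8.98, 6.58, 14.37, 13.35, 11.34 and 5.78. That is 6 lymphomas above every normal array, 2 (mPTCL 5 and 9) below every normal array and mPTCL 3 between them. The range was 8.58 log2 units, or 383-fold between mPTCL 6 and mPTCL 9. The mean differences were 1.65 ± 1.66 from resting cells (interval -1.93 to 5.23, adjusted p = 0.518) and 2.26 ± 1.68 from activated cells (interval -1.36 to 5.89, 0.353). The SD of Ifng over the lymphomas, 3.19, exceeded that of 99.8% of tested genes.

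The genes whose levels ran most like Ifng over all 15 arrays were Efcab6 (r = 0.91), the heat shock genes Hspa1b (0.90) and Hspa1a (0.88), Lrrc59 (0.89) and Cdc42ep1 (0.88). For Ccl5 they were Fasl, the death ligand of cytotoxic cells (0.93), Dmac1 (0.92), Rpa1 and Ptger4 (0.91 each) and Rpia (0.90). For Xcl1 they were Papola (0.89), Swsap1 (0.87), Trat1, an adaptor of the T cell receptor (0.85), Aasdhppt and Pitpna (0.84 each). For Il12rb2 they were the sterol synthesis gene Hmgcs1 (0.92), Prr36 (0.90), the fatty acid desaturase Scd2 (0.88), Kcnk5 and Ankrd37 (0.87 each). These r are descriptions over arrays of 3 groups, picked as the highest of all tested genes, and carry no test.

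The receptors moved apart with activation. Il12rb2, the signalling chain, read 5.00 (at the floor), 5.89 and 5.93 in resting cells and 9.86, 10.63 and 10.16 in activated cells. The rise was 4.61 ± 0.34 log2 units (n = 3 and 3), at least 24.4-fold since 1 resting array was at the floor, with a limma adjusted p of 3.72e-04. It was the largest difference of any member and held its call in each of the alternatives run. The shared chain Il12rb1 read 7.31, 7.42 and 6.52 at rest and 8.01, 8.84 and 8.28 after activation, a rise of 1.29 ± 0.34 (2.45-fold, adjusted p = 0.0298). That call was lost without resting array 1 (adjusted p = 0.0517) or 3 (0.0705), without activated array 2 (0.0915) or 3 (0.079), with no filter (0.0856) and in a fit of all 15 arrays (0.535).

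In lymphomas Il12rb2 lay between the normal states. The values of mPTCL 1 to 9 were 7.19, 8.16, 10.08, 7.56, 5.00 (at the floor), 7.47, 7.97, 7.71 and 6.20. Only mPTCL 3 reached the activated range, and 8 of 9 lay below every activated array, while the same number, all but mPTCL 5, lay above every resting array. Il12rb2 was lower in lymphomas than in activated cells, with a difference of -2.73 ± 0.75 log2 units (at least 6.65-fold, adjusted p = 0.0226). The call was lost without activated array 1 (adjusted p = 0.0697), 2 (0.107) or 3 (0.0829), and without the 7 lymphomas high in neutrophil markers, where the difference was -1.19 (0.258). The difference from resting cells, 1.88 ± 0.76 (interval 0.23 to 3.53), was not called (adjusted p = 0.105). It was called with array weights (adjusted p = 0.0131), without mPTCL 5 (2.19, 0.0286), without both lymphomas high in B cell markers (2.27, 0.0337), without the 3 low in Cd3e (1.85, 0.0126) and without the 7 high in neutrophil markers (3.42, 0.0452).

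Il12rb1 in lymphomas ran from the floor in mPTCL 5 over a median of 8.63 to 9.52 in mPTCL 1. It was above every normal array in mPTCL 1, 2, 6 and 7 and below every normal array in mPTCL 5. Neither difference was called, at 1.02 ± 0.76 from resting (adjusted p = 0.369) and -0.27 ± 0.75 from activated cells (0.828; 0.08 after median centring). Without the 3 lymphomas low in Cd3e the first was 1.61 and was called (adjusted p = 0.0172). Over the 9 lymphomas Il12rb1 and Il12rb2 had an r of 0.64 (exact permutation p = 0.0893, adjusted 0.349; rho 0.30, p = 0.437). Without mPTCL 4 and 5 it was 0.16.

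Il18r1, the ligand-binding chain for IL-18, read 11.13, 11.73 and 11.11 in resting and 10.54, 9.82 and 10.29 in activated cells, with no overlap. It fell by 1.10 ± 0.24 log2 units (2.15-fold, adjusted p = 0.0157). The call was lost without resting array 2 or activated array 2 (a difference of -0.90 in both cases, under 2-fold), without activated array 3 (adjusted p = 0.051), with no filter (0.0611) and in the fit of all 15 arrays (0.808). The lymphomas mPTCL 1 to 9 read 12.98, 9.85, 10.40, 13.32, 10.65, 10.10, 7.58, 8.19 and 5.88. mPTCL 1 and 4 were above every normal array and mPTCL 7, 8 and 9 below, a range of 7.45 log2 units. The differences, -1.44 ± 1.26 from resting and -0.34 ± 1.27 from activated cells, were not called (adjusted p = 0.451 and 0.872), and the second was 0.01 after median centring.

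Il18rap, the accessory chain and the neighbour of Il18r1 on chromosome 1, differed little between the normal states. It read 10.10, 10.01 and 9.59 at rest and 9.28, 9.74 and 9.80 after activation (difference -0.29 ± 0.20, adjusted p = 0.313). The lymphomas mPTCL 1 to 9 read 11.49, 12.45, 7.43, 9.78, 9.83, 11.28, 7.94, 11.04 and 7.47, so 4 were above and 3 below every normal array. Differences from resting (-0.04 ± 0.99; 0.03 after median centring) and activated cells (0.25 ± 0.99) were not called (adjusted p = 0.981 and 0.879). In mPTCL 3 and 7 alone, the lymphomas without raised neutrophil markers, the differences were -2.22 (adjusted p = 0.0183) and -1.92 (0.0195) and were called. The second probe set of Il18rap followed the first with an r of 0.97 over 15 arrays. Both IL-18 receptor chains were high in mPTCL 1 and low in mPTCL 7 and 9, but in mPTCL 4 and 8 they parted: Il18r1 was at 13.32 and 8.19 and Il18rap at 9.78 and 11.04. Their r over lymphomas was 0.43 (exact permutation p = 0.243, adjusted 0.534; rho 0.22, p = 0.581), and 0.31 without mPTCL 4 and 9.

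**Figure D3:**
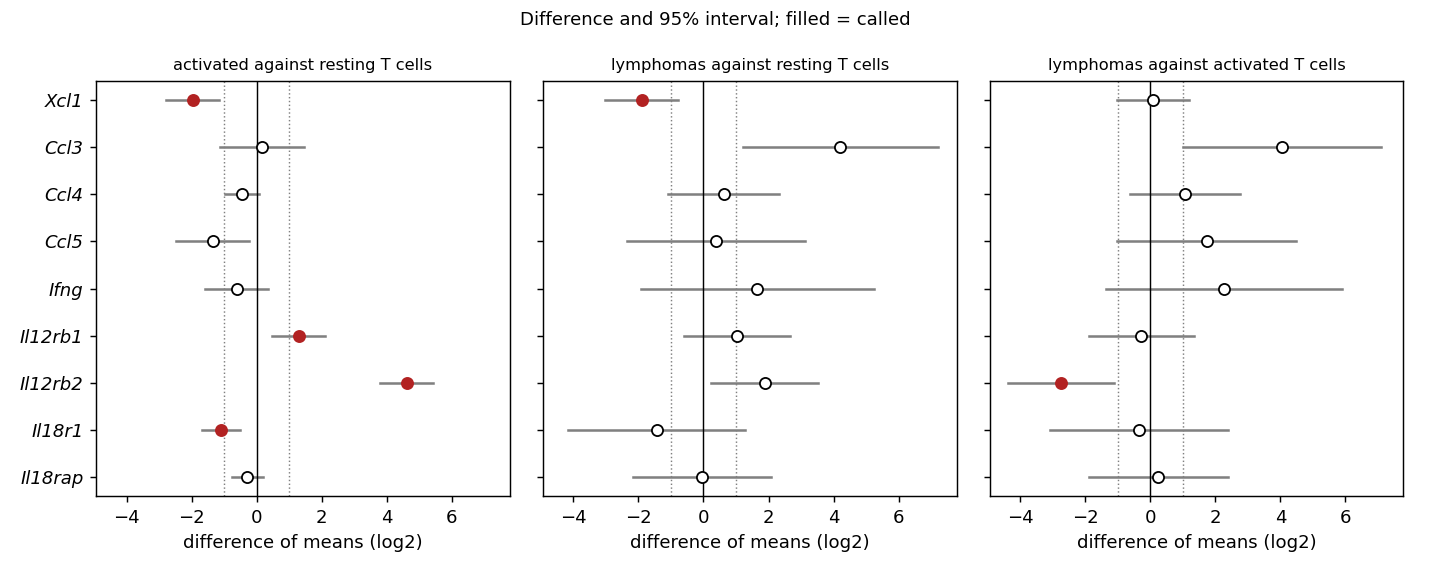
Differences of group means in log2 units, with 95% intervals from limma, for the 9 members in the 3 comparisons. For activated against resting cells the interval of Il12rb2 is 3.80 to 5.42, and for lymphomas against resting cells that of Ifng is -1.93 to 5.23.

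Against resting cells, then, lymphomas had 0 members called higher and 1, Xcl1, called lower, while 7.03% of all tested genes were called higher and 6.84% lower. At an unadjusted p under 0.05 there were 3 members. The members' median difference was 0.62, against -0.02 over all tested genes, and 1 member did not overlap, as did 19.4% of all tested genes. Against activated cells 0 members were called higher and 1, Il12rb2, lower, with 7.04% and 8.28% of all tested genes called in those directions. Here 2 members had an unadjusted p under 0.05, the median difference was 0.25 against -0.08, and no member was free of overlap, compared with 22.1% of tested genes. The lymphoma comparisons share their lymphoma arrays, and both comparisons with resting cells share the resting arrays. Without the lymphomas low in Cd3e, 4 members were called against resting and 3 against activated cells, while the calls over all 11902 tested genes were 2594 and 2956 in place of 1651 and 1824. Without 1 array at a time the members' counts ran from 0 to 3 and from 0 to 2. The fits gave both groups 1 spread per gene, although lymphomas spread more than normal cells. Intervals and calls of the lymphoma comparisons rest on that assumption. With array weights per group 3 members were called against resting and 2 against activated cells, with 2715 and 2946 calls over all tested genes.

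The few calls stood beside a wide spread. The median SD of the members was 0.49 in resting cells, 0.39 in activated cells and 1.88 in lymphomas, while over all tested genes it was 0.23, 0.19 and 0.60. The lymphoma SD of Ccl3 exceeded that of 99.0% of tested genes, Il18r1 and Ccl5 98.5% each, Il18rap 95.3%, Ccl4 90.5%, Il12rb2 89.0% and Il12rb1 88.9%, whereas Xcl1 was at 72.1%. Fold ranges were 332 for Ccl3, 174 for Il18r1 and 88.1 for Ccl5. Since the members were chosen with earlier results of these data known, these ranks of spread carry no test.

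The 9 lymphomas carried different combinations of the axis. The share of all tested genes outside the normal range was not computed for each lymphoma, so the counts below describe the members alone. mPTCL 2 had 6 members above every normal array (Ccl3, Ccl4, Ccl5, Ifng, Il12rb1 and Il18rap) and only Xcl1 below. mPTCL 1, 6 and 7 had 5 above each, and in all 3 these took in Ccl3, Ifng and Il12rb1. mPTCL 8 had 4 above, among them Ccl5 and Ifng. mPTCL 9 had the 3 chemokines Ccl3, Ccl4 and Ccl5 above, with Ifng, Xcl1 and both IL-18 receptor chains below. mPTCL 4 had Ccl3, Ifng and Il18r1 above and Ccl5 below. mPTCL 5 had only Ccl3 above, with Xcl1, Ifng and Il12rb1 below. mPTCL 3 had none above, with Ccl4, Ccl5 and Il18rap below. The lymphomas with fewest members above, mPTCL 3, 4, 5 and 9, include all 3 low in Cd3e, and their T cell means were 9.90, 9.11, 8.66 and 9.73 against 10.26 to 12.07 in the other 5. Among them mPTCL 9 was not low in the CD3 chains, with Cd3e at 12.28 and Cd3g at 13.98, while its Thy1 was at 5.32. The part of the difference in T cell means in the members' levels was not tested. NK cells make the same chemokines and interferon gamma, and the mean of 7 NK cell genes was 12.20 in mPTCL 2, 11.54 in mPTCL 8, 9.62 to 10.21 in mPTCL 1, 6 and 9 and 6.72 to 7.70 in mPTCL 3, 4, 5 and 7, against 9.29 to 9.76 in normal cells. Ncr1, an NK cell receptor, was at 11.57 in mPTCL 2, 11.16 in mPTCL 8, 9.39 in mPTCL 7, 9.27 in mPTCL 1 and 8.44 in mPTCL 6, and at most 6.54 in the other lymphomas and in normal cells. Whether RNA of these genes came from NK cells or from the lymphoma cells was not tested. Nor was any part of NK cell RNA in the members' levels.

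**Figure D4:**
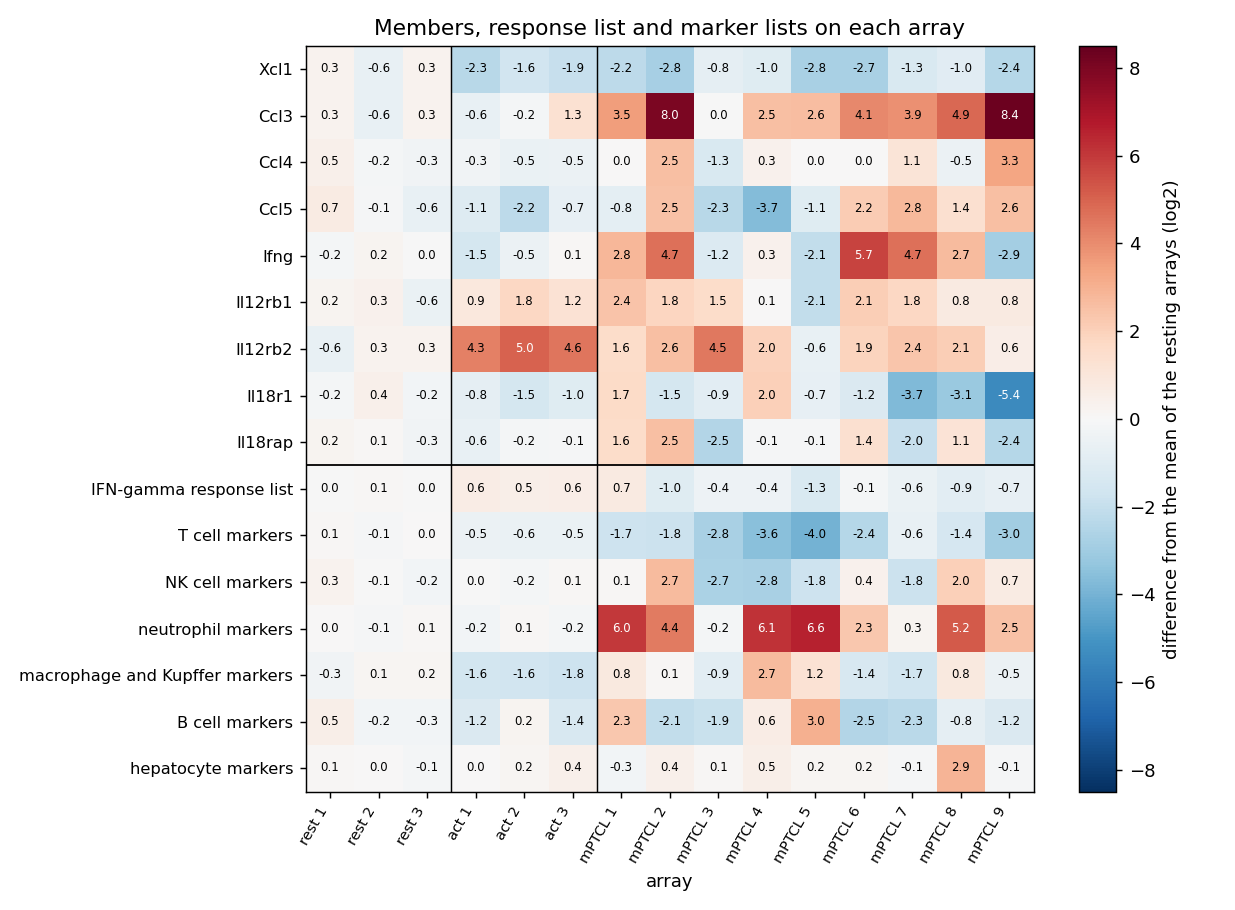
Difference of each array from the resting mean, in log2 units (colour), for the 9 members and for the means of the response and cell type marker lists. Ccl3 is higher by at least 2.53 in every lymphoma but mPTCL 3, and the neutrophil mean by at least 2.27 in every lymphoma but mPTCL 3 and 7.

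Among the other relations set across the 9 lymphomas, none passed. Ifng had an r of -0.12 with Xcl1 (exact permutation p = 0.753, adjusted 0.842; rho -0.17, p = 0.678), of 0.31 with Il12rb2 (p = 0.435, adjusted 0.772; rho 0.37, p = 0.336) and of 0.08 with Il18r1 (p = 0.842, adjusted 0.842; rho -0.07, p = 0.88). Without mPTCL 5 and 9, the lymphomas farthest from its median, these r were -0.74, -0.58 and -0.44 over 7 lymphomas (exact permutation p of 0.0665, 0.162 and 0.313). Ccl4 and Ccl5 had an r of 0.59 (exact permutation p = 0.0952, adjusted 0.349; rho 0.63, p = 0.076), and 0.38 without mPTCL 2 and 9. Xcl1 and Ccl5 had an r of -0.43 (exact permutation p = 0.239, adjusted 0.534; rho -0.38, p = 0.312), and -0.42 without mPTCL 3 and 8.

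Genes of the interferon gamma receptor and its targets were taken as a response list. Which signal set their levels in each sample was not tested. Over 23 tested genes of this list, the mean level was 10.41 to 10.52 in resting cells and 10.94 to 11.06 in activated cells. In mPTCL 1 to 9 it was 11.19, 9.41, 10.04, 10.02, 9.13, 10.31, 9.86, 9.59 and 9.74. Thus 8 of 9 lymphomas lay below every normal array, among them mPTCL 6, 7 and 2, which had the highest Ifng, and mPTCL 1 lay above all of them. The r of Ifng with that mean over lymphomas was 0.28 (exact permutation p = 0.491, adjusted 0.772; rho 0.35, p = 0.359), and -0.08 without mPTCL 5 and 9. mPTCL 6, at 10.31, was close to the lowest normal array, at 10.41. The mean takes in Ifngr1, Ifngr2 and Jak1, and its genes did not all move together. Against resting and activated cells Cxcl10 differed by 2.01 and 2.23, Ciita by 1.17 and 0.62 and Cxcl9 by 0.86 and 0.29. None of these was called, and the list medians were -0.55 and -1.04.

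With activation 6 of the 23 rose and 0 fell (median difference 0.57), where 8.45% of all tested genes were higher and 4.23% lower, led by the GTPase Iigp1 at 2.32 ± 0.19 (5.00-fold, adjusted p = 5.12e-04) and the guanylate-binding proteins Gbp6 (1.39 ± 0.23) and Gbp3 (1.21 ± 0.24). Against resting cells 1 of 23 was lower in lymphomas and 0 higher (median -0.55), where 6.84% of all tested genes were lower and 7.03% higher. The 1 was the receptor kinase Jak1 at -1.37 ± 0.26 (adjusted p = 0.0038). Against activated cells 9 were lower and 0 higher (median -1.04), where 8.28% of all tested genes were lower and 7.04% higher. The largest were the immunity-related GTPases Iigp1 at -4.12 ± 1.01 (17.4-fold, adjusted p = 0.0133), Irgm2 at -2.87 ± 0.80 (0.024) and Igtp at -2.77 ± 0.72 (0.0176). Those 3 were not called without any 1 of the activated arrays, and the count of 9 fell to 2 in each such fit and to 5 after median centring. Iigp1 was also not called without the 7 lymphomas high in neutrophil markers. The Gbp3 rise was lost without resting array 3 and after median centring. The count of 6 with activation fell to 2 after median centring and to 0 in the limma fit of all 15 arrays (1 at an unadjusted p under 0.05), in which 397 genes were called in all in place of 1510. Jak1 was not called without the 7 lymphomas high in neutrophil markers, at -0.95 and under 2-fold.

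On a list of Ifng induction, 15 transcription factors and kinases were tested. With activation 6 rose and 0 fell (median 0.65), where 8.45% of all tested genes were called higher and 4.23% lower. In the fit of all 15 arrays 2 were called. The list does not sort genes by the direction in which they act on Ifng. The 6 took in Runx3, Gata3 and Prdm1 (1.33, 1.32 and 1.22), while Eomes and Runx1 differed by -0.78 and -0.45, under 2-fold. Bhlhe40, which holds back IL-10 in type 1 helper cells, rose by 4.19 ± 0.55 log2 units (adjusted p = 0.00256), Irf4 by 1.83 ± 0.21 and Tbx21, the gene of T-bet, by 1.47 ± 0.20. Irf4 (adjusted p = 0.548) and Tbx21 (0.677) were not called in the fit of all 15 arrays. Bhlhe40 was also above resting cells in lymphomas (4.33 ± 0.57, at least 20.1-fold, adjusted p = 3.95e-04), and with Runx3, a partner of T-bet (1.05 ± 0.31, 0.0316), it made up the 2 of 15 higher there, with 0 lower (median -0.54). In that comparison 7.03% of all tested genes were called higher and 6.84% lower. The Runx3 call was lost without any 1 resting array, without mPTCL 2 or 9, without the 7 lymphomas high in neutrophil markers and after median centring. Against activated cells 4 were lower and 0 higher (median -0.86), among them Stat4, which carries the IL-12 signal (-2.41 ± 0.56, adjusted p = 0.00987), Gata3 (-2.04 ± 0.59, 0.0267) and the interferon-induced factor Irf1 (-1.47 ± 0.34, 0.0107). Here 8.28% of all tested genes were called lower and 7.04% higher. Without activated array 1 none of the 4 was called, and Gata3 was lost without any 1 activated array and Irf1 without array 1 or 2. Gata3 and Irf1 were also lost after median centring.

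Of 13 tested ligands, related receptors and adaptors of the IL-12 and IL-18 families, 3 rose with activation and 0 fell (median 0.13). These were Ebi3, the shared subunit of IL-27 and IL-35 (2.43 ± 0.30, adjusted p = 0.00209), the adaptor kinase Irak2 (1.17 ± 0.17) and Casp1, which matures IL-18 (1.13 ± 0.20). Over all tested genes 8.45% were called higher with activation and 4.23% lower. Casp1 was not called without activated array 1, and neither Irak2 nor Casp1 after median centring. In the fit of all 15 arrays none of the 3 was called (limma adjusted p = 0.219, 0.0921 and 0.599), and 2 of the 13 had an unadjusted p under 0.05. In lymphomas 2 were lower than in resting cells and 0 higher (median 0.16), where 6.84% of all tested genes were lower and 7.03% higher. Il6st, the gp130 signal chain shared by IL-6 and IL-27 receptors, differed by -4.63 ± 0.61 log2 units (24.7-fold lower, adjusted p = 3.90e-04), and Il27ra by -2.83 ± 0.83 (0.0325), a call lost without any 1 resting array, without the 7 lymphomas high in neutrophil markers and after median centring. Against activated cells 2 were lower and 0 higher (median -0.23), Il6st with -4.24 ± 0.61 (18.9-fold, adjusted p = 8.97e-04) and Irak2 with -1.01 ± 0.31 (0.0359). Here 8.28% of all tested genes were called lower and 7.04% higher. The Irak2 call was lost without any 1 activated array, without mPTCL 1, 2, 3, 6 or 8 and after median centring.

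Of the receptors that bind the member chemokines, 2 were tested and neither was called by limma in any comparison, nor had an unadjusted p under 0.05. Ccr1 was at 5.57 on average in resting, 5.74 in activated and 7.77 in lymphoma arrays (adjusted p = 0.186 and 0.226 for the lymphoma comparisons). Ackr2, a receptor that takes up chemokines without signalling, was at 6.14, 6.77 and 6.15.

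Of 17 other chemokines tested, 5 rose with activation and 0 fell (median 0.43), where 8.45% of all tested genes were called higher and 4.23% lower. The count was 3 to 4 without 1 array at a time, 3 with no filter, quantile normalisation, the mean of probe sets or the replicate block, 2 with a filter at 200 and 1 in the fit of all 15 arrays, where Pf4 (adjusted p = 0.0601) and Ccl22 (0.146) were not called. Pf4, with 2 resting arrays at the floor, rose by 3.90 ± 0.50 log2 units (adjusted p = 0.00234), and Ccl22, a ligand of Ccr4, by 1.67 ± 0.31 (0.00936). Cxcl5 rose from the floor in all 3 resting arrays to between 7.26 and 7.46 (at least 5.07-fold, adjusted p = 4.03e-04). None of the 17 was called by limma against resting cells in lymphomas (median 0.64), and 2 had an unadjusted p under 0.05. Over all tested genes 7.03% were called higher there and 6.84% lower. Against activated cells 3 were lower and 0 higher (median -0.03): Cxcl5 (-2.08 ± 0.46, adjusted p = 0.00838), Ccl22 (-1.49 ± 0.48, 0.0436) and Cx3cl1 (-1.35 ± 0.43, 0.0417). Cxcl5 was at the floor in 8 lymphomas, Ccl22 in 4 and Cx3cl1 in 2, so the size of these differences depends on the floor. The Ccl22 and Cx3cl1 calls were lost without any 1 activated array, without 6 and 5 single lymphomas in turn, and with quantile normalisation or median centring. Both were also lost with a floor of 16, with log2 of the value plus 16, and without the lymphomas high in neutrophil or in B cell markers. For Ccl22 the same held with a floor of 64 and with no filter.

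Of 14 other T cell cytokines tested, 1 fell with activation and 0 rose (median -0.14), where 4.23% of all tested genes were called lower and 8.45% higher. The 1 was Il21, which helps B cells, with -1.88 ± 0.27 log2 units (adjusted p = 0.00378). In lymphomas 2 were lower than in resting cells and 0 higher (median -0.34): Il16, a CD4 ligand, at 11.78 ± 0.65 (SD, n = 9) against 13.78 ± 0.05 (n = 3; adjusted p = 0.00249), and Il21 with -1.92 ± 0.60 (0.0422), a call lost without any 1 resting array or without mPTCL 2, 3, 6, 7, 8 or 9. Il21 was at the floor in 5 lymphomas. Il16 was also the 1 called against activated cells, at -1.85 ± 0.36 (adjusted p = 0.00424), with 0 higher (median -0.27). Over all tested genes 6.84% were called lower and 7.03% higher against resting cells, and 8.28% and 7.04% against activated cells. Both Il16 calls were lost without the 7 lymphomas high in neutrophil markers (adjusted p = 0.0513 and 0.0601), and that of Il21 with activation in the fit of all 15 arrays (0.184).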

How the data were processed

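RNA of 15 samples was measured on oligonucleotide arrays. Per the labels' protocols, a column kit gave total RNA, and a 3′ IVT kit amplified that of the normal cells. The deposited unit is linear intensity, made by the authors with MAS5 in Affymetrix Expression Console, per the submitters' processing notes. These give version 1.1 for lymphomas and none for normal cells, so software version and group cannot be told apart between lymphomas and normal cells. The arrays' number limits the precision.

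Values below 32 were set to 32 and log2 was taken. Of 45101 probe sets, 34958 had 1 gene symbol, 932 several and 9211 none, by the platform's annotation, which can be old. Symbols of 34741 were matched by gene identifier. Probe sets with 1 symbol were used, without 64 controls, and the probe set of highest mean stood for each of 18193 genes. Genes reaching 100 in 3 or more arrays (11902) were fitted in limma 3.58.1 (R 4.3.3; lmFit, then eBayes using a trend) on the arrays of the 2 groups compared. Calls needed a Benjamini-Hochberg adjusted p under 0.05 over all tested genes and a 2-fold change. The fit was run on simulated data with known changes. Those data had 1 spread per gene for both groups and no floor, so they do not check calls where the groups spread unequally. A fold is given as at least a value where the lower group alone has arrays at the floor. Relations over the 9 lymphomas used Pearson and Spearman correlation, each with an exact 2-sided permutation test, with adjusted values over 11 relations.

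The members and gene lists were chosen with earlier results of these data known. Named from each list were at most 4 called genes per comparison with the largest changes, at most 3 in 1 direction. Both chemokine receptors are given outside that rule, as are genes named to show the make-up of a list. Also named by rule were markers that bear on the labels and, for Ifng, Xcl1, Ccl5 and Il12rb2, the 5 genes of highest r, without predicted genes, receptor segments and sex-linked genes. Deviations of same-numbered normal arrays correlated at -0.01, 0.05 and -0.01, so no pairing by replicate number was seen. These values cannot exclude a pairing of donors that differ little. The lymphomas high in neutrophil markers (1, 2, 4, 5, 6, 8 and 9) had a marker mean over 2 log2 units higher than any normal array, and those low in Cd3e (3, 4 and 5) a level over 2 units lower than any. The p53 gene itself is not analysed here.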

Additional observations from a re-analysis of the deposited data

How the results depend on the processing

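Members called, activated against resting, were 4. They were 2 with no filter, 1 with all 15 arrays in 1 fit and 2 to 4 without 1 array at a time. With the replicate block there were 4, and 1431 genes in all against 1510, so the block changed no member's call. Members called in lymphomas against resting cells were 1. They were 2 with a floor of 16, with quantile normalisation, with all 15 arrays, without lymphomas high in neutrophil or in B cell markers, 3 with array weights, 4 without those low in Cd3e and 0 to 3 without 1 array. Against activated cells they were 1, and 2 with quantile normalisation, median centring, all 15 arrays or array weights, 3 without those low in Cd3e and 0 to 2 without 1 array. The relation that passed, 1, became 0 to 1 without 1 lymphoma. Causes of these moves were not tested, beyond the fewer arrays or other genes in each fit.

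Differences that changed sign were all uncalled in the fit given in the results. Ccl3 in activated against resting cells was -0.12 with median centring and -0.40 to 0.55 without 1 array. Il18rap against resting cells was 0.01 with quantile normalisation, 0.03 with median centring, 0.16 with the mean of probe sets, 0.38 without lymphomas low in Cd3e and -0.37 to 0.26 without 1 array. Ccl4 against resting cells was -0.10 without lymphomas high in neutrophil markers. Against activated cells, Il12rb1 was 0.08 with median centring, 0.38 and 0.32 without lymphomas high in neutrophil markers and low in Cd3e, and -0.45 to 0.12 without 1 array. Il18r1 was 0.01 with median centring and -0.77 to 0.16 without 1 array. Il18rap was -1.92 without lymphomas high in neutrophil markers and -0.08 to 0.55 without 1 array. Xcl1 was -0.11 without lymphomas low in Cd3e and -0.11 to 0.24 without 1 array. The r of Ifng with Xcl1 was 0.02 with median centring and -0.34 to 0.07 without 1 lymphoma. Without 1 lymphoma, Ccl3 had an r of -0.35 to 0.27 with the neutrophil and -0.38 to 0.06 with the macrophage mean, and Ifng of -0.38 to 0.24 with Il18r1. In all, 33 values changed sign. The relations could not be run without lymphomas high in neutrophil markers, since 2 remain.

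Over all genes, calls for activated against resting cells were 397 with all 15 arrays and 3678 by adjusted p alone, against 1510. For lymphomas against resting cells they were 2715 with array weights, 2594 without those low in Cd3e and 778 to 827 without 1 resting array, against 1651. Against activated cells they were 2946, 2956 and 916 to 928 without 1 activated array, against 1824. The signal at the floor limits what can be said of Ccl3 and Il12rb2 in resting cells, which have 1 array there each.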
